A study of Homo sapiens and Mus musculus with 20 samples.

Results

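The olfactory receptor (OR) genes of human chromosome 11 were taken as the protein-coding genes whose symbol is OR followed by digits, letters and digits in the GENCODE annotation of GRCh37 (hg19). There were 171 such genes among the 1317 protein-coding genes of the chromosome and the 20176 of the annotation. Each gene body was extended by 10 kb on either side, and the extended bodies merged into 92 regions with 3.54 Mb of sequence, set against the remaining 127.59 Mb of chromosome 11 (the rest of the chromosome, below). Binding was read from Satb1 ChIP-seq peaks of MCF10A, an epithelial line from human breast that has no Satb1 of its own and here expressed Satb1 constructs fused to eGFP. The 5 ChIP-seq lists were full-length Satb1 (FL), Satb1 without its homeodomain (dHD), its N-terminal domain with the CUT1 domain (N-C1), and FL after 2 h of camptothecin or ICRF-193, which inhibit topoisomerase I and topoisomerase II. Accessibility was read from 2 ATAC-seq lists, native MCF10A and MCF10A expressing Satb1. There was 1 list per condition, whether duplicates were pooled is not given in the sources used here, and no test between conditions was possible. Exact 95% intervals (Clopper-Pearson for shares, Poisson for densities) cover counting error only, and absence from a list does not show that Satb1 was not bound. The FL list held 34 peaks in OR regions of 926 on the chromosome, dHD held 68 of 2096, N-C1 held 93 of 2490, camptothecin 35 of 897 and ICRF-193 56 of 1343. The native ATAC-seq list held 87 of 8371 and the Satb1 list 98 of 9811.

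Olfactory receptors are G protein-coupled receptors for odorants, and each sensory neuron of the nose usually expresses a single receptor allele while the other receptor genes stay silent. Most receptors are encoded by a single coding exon, and the genes lie in tandem arrays of related copies in A/T-rich, gene-poor DNA. Class I receptors (families 51, 52 and 56) form a group first known from fish, and class II holds the other families. Satb1 is a nuclear architectural protein that binds A/T-rich DNA through its CUT domains and homeodomain. On chromosome 11 there were 55 class I and 116 class II genes in 8 clusters, where a cluster joins OR regions less than 1 Mb apart. All class I genes lay in the first cluster, from OR52B4 to OR10A3 (chr11:4378493-7973255), which held 67 genes. The cluster from OR4A16 to OR5AK2 (chr11:55100677-56767318) held 48 genes, that from OR6X1 to OR8A1 (chr11:123614288-124462838) held 22, and that from OR9Q1 to OR10V1 (chr11:57781353-59491318) held 21. The other 4 clusters held between 1 and 7 genes.

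The sequences at the strongest sites show what the peaks covered. The Satb1 consensus searched was YTAWTAR, which is CTAATAA or CTAATAG or CTATTAA or CTATTAG or TTAATAA or TTAATAG or TTATTAA or TTATTAG, a set that is its own reverse complement, so that both strands were searched at once and overlapping matches were counted. A window of 150 bases held at least 1 match in 13.0% of cases in OR regions and in 10.5% on the rest of the chromosome. The following 150 bases, centered on a summit, are given 5′ to 3′ on the + strand of GRCh37 and named by the nearest OR gene, with matches in capitals. OR5D13 and OR51F1 came next after the OR8H1 site below in FL fold enrichment within OR regions. OR5AR1 was strong in FL and absent from dHD, OR52A5 was absent from dHD and N-C1, OR9Q1 was in neither drug list, and OR8D1 appeared after ICRF-193 without FL.
OR5D13, chr11:55545338-55545487: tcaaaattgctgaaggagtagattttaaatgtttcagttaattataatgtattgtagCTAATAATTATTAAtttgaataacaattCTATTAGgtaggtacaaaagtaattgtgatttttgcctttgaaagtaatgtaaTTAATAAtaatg
OR51F1, chr11:4784993-4785142: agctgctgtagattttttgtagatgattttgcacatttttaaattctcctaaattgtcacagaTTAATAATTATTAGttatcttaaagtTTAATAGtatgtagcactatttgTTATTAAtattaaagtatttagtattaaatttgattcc
OR5AR1, chr11:56434977-56435126: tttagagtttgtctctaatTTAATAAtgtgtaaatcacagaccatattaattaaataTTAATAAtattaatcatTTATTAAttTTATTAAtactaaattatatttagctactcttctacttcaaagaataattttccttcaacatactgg
OR52A5, chr11:5155841-5155990: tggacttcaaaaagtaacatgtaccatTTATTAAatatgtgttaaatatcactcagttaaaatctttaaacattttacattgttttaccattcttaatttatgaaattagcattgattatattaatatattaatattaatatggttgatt
OR9Q1, chr11:57851671-57851820: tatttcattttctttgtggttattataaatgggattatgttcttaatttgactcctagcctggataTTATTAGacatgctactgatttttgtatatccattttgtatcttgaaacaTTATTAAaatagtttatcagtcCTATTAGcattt
OR8D1, chr11:124171180-124171329: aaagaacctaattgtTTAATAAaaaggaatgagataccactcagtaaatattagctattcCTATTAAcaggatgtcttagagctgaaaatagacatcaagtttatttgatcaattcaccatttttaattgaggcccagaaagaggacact
These 6 stretches held between 1 and 4 matches and were between 68.7% and 80.7% A/T. At OR5D13 and OR51F1 pairs of matches abutted, so that CTAATAA ran directly into TTATTAA at OR5D13.

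The strongest FL site of the OR regions, 5635 bp upstream of the OR8H1 start, carried no consensus match in the 150 bases around its summit. Its sequence was instead made of copies of an 11-base word, TATCTAATGAA, which was chosen after the sequence had been seen, as the longest word with at least 6 copies there. All chromosomes of GRCh37 were then searched for tracts with at least 3 copies on either strand, each within 200 bp of the next. Among 2544 copies on 24 chromosomes there were 2 such tracts, both in the cluster from OR4A16 to OR5AK2 and both upstream of family 8 receptors. Copies are in capitals in the 180 bases at the center of each tract, on the + strand.
OR8H1, chr11:56065267-56065446: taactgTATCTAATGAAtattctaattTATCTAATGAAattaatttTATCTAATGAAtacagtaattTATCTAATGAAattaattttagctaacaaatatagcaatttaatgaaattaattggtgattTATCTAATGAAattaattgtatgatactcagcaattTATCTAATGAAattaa
OR8I2, chr11:55860285-55860464: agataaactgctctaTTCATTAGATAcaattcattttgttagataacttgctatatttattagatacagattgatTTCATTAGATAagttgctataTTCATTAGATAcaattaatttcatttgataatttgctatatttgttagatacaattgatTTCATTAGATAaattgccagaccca
The OR8H1 tract held 6 copies and the OR8I2 tract 4, the latter on the opposite strand. Aligned in opposite orientation, the FL peaks of 625 and 475 bp at these tracts were identical at 234 of 303 aligned positions (77.2%, with 30 gap positions). The OR8H1 tract gave the word because it lies under the strongest FL peak, so its place in peaks is a description. The OR8I2 tract was also inside a peak of every ChIP-seq list, and neither tract was in an ATAC-seq peak. At OR8H1 the fold enrichment, the authors' ratio of pileup to local background within a list, was 25.0 in FL, 21.6 in dHD, 44.9 in N-C1, 25.6 after camptothecin and 32.7 after ICRF-193. At OR8I2 it was 15.4, 19.7, 42.0, 12.8 and 18.5 in the same order. OR8H1 was the strongest OR-region site of FL, N-C1 and both drug lists, and OR8I2 was also among the sites above 40 in N-C1.

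Peaks of the N-C1, camptothecin and ICRF-193 lists were denser in the OR regions than on the rest of chromosome 11, and in no list was the density different from the rest at equal A/T content, within counting error. FL peaks were 9.62 per Mb in OR regions (95% interval 6.66 to 13.4) and 6.99 per Mb elsewhere (6.54 to 7.47), a ratio of 1.38 (0.947 to 1.94). The ratio was 1.21 (0.936 to 1.54) for dHD, 1.40 (1.13 to 1.72) for N-C1, 1.47 (1.01 to 2.05) after camptothecin and 1.57 (1.18 to 2.05) after ICRF-193. The intervals of N-C1 and of both drug lists lay above 1, and those of FL and dHD included 1. These 5 intervals overlapped one another, so these data do not order the lists. OR regions were 62.3% A/T against 58.3% for the rest, and they held 972 consensus matches per Mb against 778. When the rest of the chromosome was split into 10 kb windows by classes of 2 percentage points of A/T, its densities gave 34.6 FL peaks for the OR regions, and 34 were listed. The ratio at equal A/T content was 0.982 (0.680 to 1.37) for FL, 0.868 (0.674 to 1.10) for dHD, 0.962 (0.776 to 1.18) for N-C1, 0.997 (0.695 to 1.39) after camptothecin and 1.08 (0.817 to 1.40) after ICRF-193. All 5 intervals included 1. Per 100 consensus matches, FL had 0.989 peaks in OR regions and 0.899 elsewhere, a ratio of 1.10 (0.757 to 1.55). With gene bodies alone, without the 10 kb flanks, the raw ratio was 1.03 for FL, 0.779 for dHD, 0.875 for N-C1, 0.606 after camptothecin and 0.811 after ICRF-193.

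**Figure D1:**
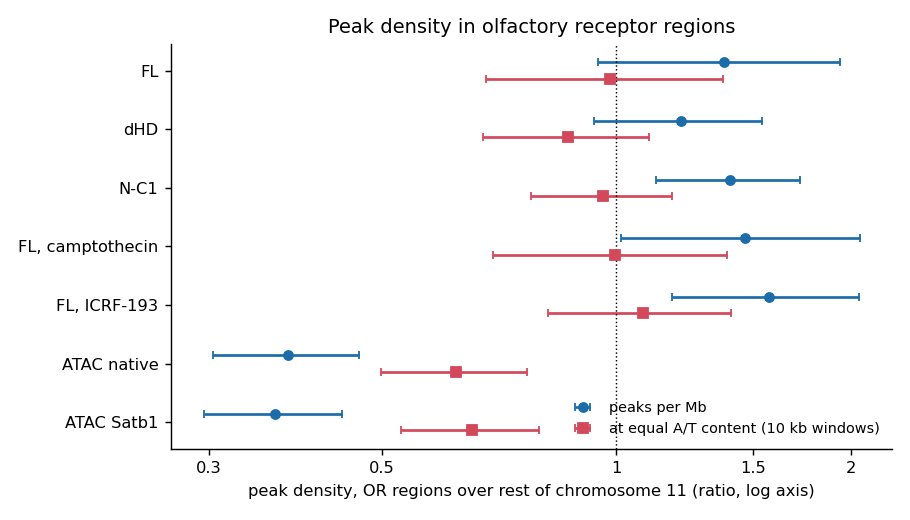
Peak density in olfactory receptor regions divided by that on the rest of chromosome 11 (log axis) for 5 ChIP-seq and 2 ATAC-seq lists, as peaks per Mb (circles) and at equal A/T content in 10 kb windows (squares), with 95% counting intervals. The ChIP-seq ratios run from 1.21 to 1.57 per Mb and from 0.868 to 1.08 at equal A/T content, and both ATAC-seq ratios lie below 1 on either scale.

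Accessible sites were scarce in the same regions. Native ATAC-seq peaks were 24.6 per Mb in OR regions (19.7 to 30.4) and 64.9 per Mb on the rest (63.5 to 66.3), a ratio of 0.379 (0.303 to 0.468), and with Satb1 they were 27.7 and 76.1 per Mb, a ratio of 0.364 (0.295 to 0.444). They covered 1.33% of the OR regions and 6.39% of the rest in native cells, and 1.47% and 9.93% with Satb1. At equal A/T content the density ratios were 0.623 (0.499 to 0.769) and 0.653 (0.530 to 0.795), still below 1. Of the 87 native peaks in OR regions, 22 lay within 10 kb of another protein-coding gene and 3 within 1000 bp of its start. Of the native peaks in OR regions, 74 of 87 overlapped a peak of the Satb1 list (85.1%, 75.8 to 91.8), against 89.2% (88.5 to 89.8) on the rest. In the other direction 76 of 98 Satb1 peaks in OR regions overlapped a native peak (77.6%, 68.0 to 85.4), against 70.5% (69.5 to 71.4) on the rest, with overlapping intervals.

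The receptor starts themselves were mostly outside ATAC-seq peaks. Within 1000 bp of its start, 13 of 171 OR genes had a native peak (7.60%, 4.11 to 12.6) and 12 had a Satb1 peak (7.02%, 3.68 to 11.9), while the share over all protein-coding genes of the chromosome was 67% and 71.7%. Among the 1146 other genes of the chromosome it was 75.8% (73.2 to 78.3) and 81.3% (78.9 to 83.5). In 78 of the 171 OR genes the annotated start was the first coding base, so the transcription start of those genes may lie further upstream. Starts were in a peak of both lists for 9 OR genes (5.26%, against 65.7% of all genes of the chromosome) and of either list for 16 (9.36% against 73%). By score, the start peaks led at OR10S1 with a fold enrichment of 8.11 in native and 7.83 in Satb1 cells, OR9Q1 with 6.62 and 7.28, OR51D1 with 8.30 and 4.82, OR52N2 with 5.66 and 4.52, OR6A2 with 2.80 and 3.71, OR10A2 with 4.09 and 3.32, OR56B1 with 3.21 and 2.84 and OR5A2 with 2.75 and 2.49. OR56A5 had a start peak of 2.59 in the Satb1 list without a native one, and OR10G7 one of 2.86 in the native list without a Satb1 one. For scale, KRT5, a keratin of basal mammary cells, had 17.0 and 14.4 at its start. Of 10 mammary epithelial markers 9 had a start peak in either list, TP63 being the exception, and of 6 blood cell markers 0 had one in native cells and 1 (CD4) had one with Satb1.

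A list of 14 genes of odorant signalling and of receptor choice, other than the receptors, was also read. Of these, 9 had a start peak in native cells and 9 with Satb1, against 73.6% and 77.8% of all 20176 protein-coding genes of the annotation. They included GNAL, the olfactory G protein alpha subunit, at 9.28 and 6.86, ADCY3, the adenylyl cyclase it activates, at 6.54 and 5.47, and GNG13, a G protein gamma subunit, at 3.62 and 4.47. The strongest start peak of the list was at CNGA4, a subunit of the channel opened by cyclic AMP, with 64.7 and 44.5. EBF1 came next with 14.4 and 12.9. CNGA2, another subunit of that channel, had none in either list, and neither did CNGB1, RTP2 and ANO2. OMP, the olfactory marker protein, had a peak of 4.82 with Satb1 and none in native cells. With 10 kb flanks, FL peaks lay at 3 of the 14 genes, EBF1, ANO2 and REEP1, against 26.1% of all protein-coding genes of the annotation.

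ChIP-seq and ATAC-seq peaks rarely overlapped, both in OR regions and on the rest of the chromosome. Of the 34 FL peaks, 0 overlapped a native or a Satb1 ATAC-seq peak, which allows a share of up to 8.82% at a limit of 3 counts, the limit used here for counts of 0. The share over all FL peaks of the chromosome was 1.62% in native and 3.24% in Satb1 cells, so a count of 0 among 34 peaks cannot be told from it. A native ATAC-seq peak overlapped 1 of 68 dHD peaks in OR regions (1.47%, against 4.19% on the rest) and 1 of 93 N-C1 peaks (1.08% against 2.96%). For ICRF-193 it was 1 of 56 (1.79% against 2.41%). The interval of the difference from the rest included 0 for every ChIP-seq list with either ATAC-seq list. Joined over the 5 lists, the OR regions held 111 sites, and 1 of them, 1496 bp beyond the end of OR8D1, had an ATAC-seq peak. There the fold enrichment was 10.9 in dHD, 9.86 in N-C1 and 9.09 after ICRF-193, with 3.31 in native and 3.09 in Satb1 ATAC-seq.

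The largest clusters differed in the density of ATAC-seq peaks and, before A/T content was taken into account, in that of FL, N-C1 and camptothecin peaks. For dHD and ICRF-193 the interval of the ratio included 1. In the cluster from OR4A16 to OR5AK2, all class II, FL peaks numbered 13, or 14.1 per Mb (7.52 to 24.2), against 7, or 5.05 per Mb (2.03 to 10.4), in the cluster from OR52B4 to OR10A3, which holds all class I genes. The ratio of these densities was 2.80 (1.04 to 8.28) for FL, 1.66 (0.852 to 3.27) for dHD, 1.97 (1.15 to 3.42) for N-C1, 3.76 (1.38 to 11.8) after camptothecin and 1.69 (0.815 to 3.55) after ICRF-193. Native ATAC-seq peaks went the other way, with 4 against 45 and a ratio of 0.134 (0.0350 to 0.367), and in Satb1 cells with 5 against 57 and a ratio of 0.132 (0.0413 to 0.327). The first of these clusters was 64.1% A/T and the second 61.8%. At equal A/T content the FL ratio to the rest of the chromosome was 1.13 (0.599 to 1.92) and 0.567 (0.228 to 1.17), with overlapping intervals, while the native ATAC-seq ratio was 0.141 (0.0385 to 0.361) and 0.763 (0.556 to 1.02), which did not overlap. The cluster from OR9Q1 to OR10V1 had 13.4 FL peaks per Mb (5.39 to 27.6) and that from OR6X1 to OR8A1 had 4.70 (0.570 to 17.0). In the OR4A5 to OR4C46 cluster, 3 genes beside the centromere, 3 FL peaks lay in 0.0629 Mb with 0 ATAC-seq peaks of either list. There 8.71% of 75-base words recurred elsewhere on the chromosome, against 2.27% in all OR regions and 2.09% on the rest, and the part this plays in its peaks was not tested.

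**Figure D2:**
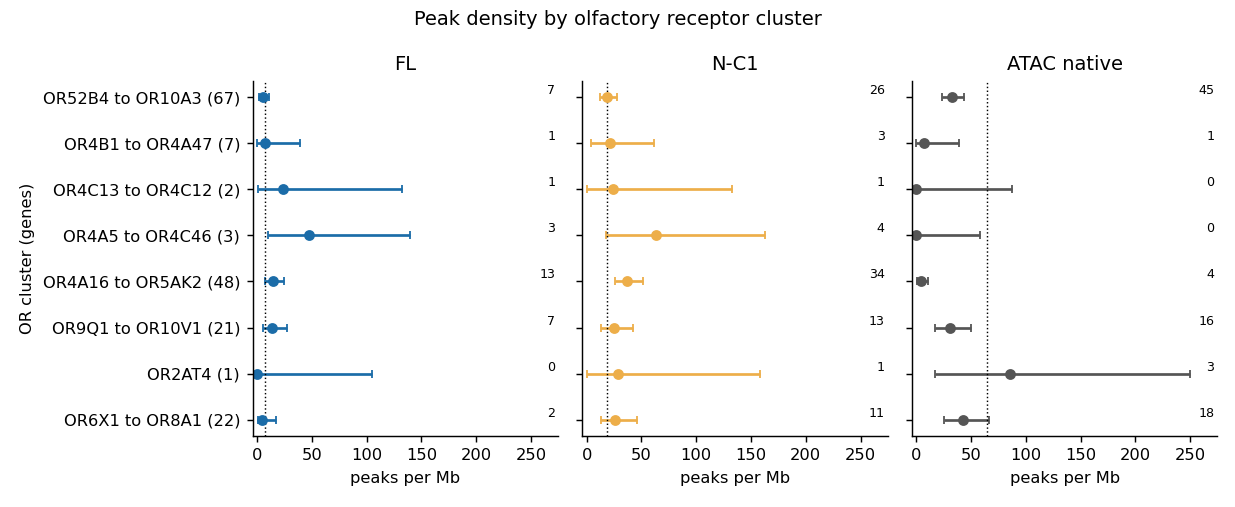
Peaks per Mb with 95% Poisson intervals in the 8 olfactory receptor clusters, labelled by first and last gene with the number of genes, for FL, N-C1 and native ATAC-seq, with peak counts at the right and the density on the rest of chromosome 11 as a dotted line. The OR4A16 to OR5AK2 cluster has 13 FL, 34 N-C1 and 4 native ATAC-seq peaks, and the OR52B4 to OR10A3 cluster 7, 26 and 45.

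Seen by gene, 31 of 171 OR genes had an FL peak in the body or within 10 kb (18.1%, 12.7 to 24.7), against 20.9% of all protein-coding genes of the chromosome. The count was 62 for dHD (36.3% against 34.2%), 76 for N-C1 (44.4% against 36.7%), 35 after camptothecin (20.5% against 19.2%) and 54 after ICRF-193 (31.6% against 26.2%). The OR intervals held the background share in all lists but N-C1, whose interval of 36.9 to 52.2 lay just above it. Neighbouring receptors share peaks, so genes are not independent, and OR bodies are short, with a median of 1074 bp. In all, 28 genes had a peak in every ChIP-seq list (16.4%, against 17.3% of all protein-coding genes of the chromosome) and 87 had none in any (50.9% against 59.1%). By class, 8 of 55 class I genes had an FL peak (14.5%, 6.50 to 26.7) and 23 of 116 class II genes (19.8%, 13.0 to 28.3). In family 5, the largest, 10 of 35 genes had one, in family 8 there were 5 of 23, and in family 10 there were 0 of 16 although 6 of its genes had a dHD peak.

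OR4C46 (chr11:51515282-51516211) had most FL peaks, 3, with fold enrichments of 8.42, 6.91 and 5.27. Its peaks numbered 2 in dHD, 3 in N-C1, 1 after camptothecin and 3 after ICRF-193. Another 8 genes had 2 FL peaks each, led by fold enrichment by OR5AR1, OR8I2, OR8B8 and OR51B5. The strongest of them were 19.8 at OR5AR1, 15.4 at OR8I2, 14.5 at OR8B8 (the site nearest to OR8B4) and 7.19 at OR51B5. OR51B5 has an annotated body of 202 kb that overlaps HBE1 and HBG2 of the beta-globin locus, and its 2 FL peaks lay in its introns. In that body with its flanks there were 4 native and 7 Satb1 ATAC-seq peaks. Within their clusters, OR4S1 had 1 FL peak of 5.82, OR4C13 had 1 of 5.96 and OR5B17 had 2, the stronger of 6.52, while the single-gene cluster of OR2AT4 had none in FL and 1 in N-C1.

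Peak summits lay outside the receptor coding exons in every ChIP-seq list. Coding exons made up 4.58% of the OR regions and were 53.8% A/T, with 228 consensus matches per Mb against 972 over the regions. No summit of any ChIP-seq list fell in an OR coding exon, 0 of 34 FL, 0 of 68 dHD, 0 of 93 N-C1, 0 of 35 camptothecin and 0 of 56 ICRF-193 summits. At a limit of 3 counts these allow shares of up to 8.82%, 4.41%, 3.23%, 8.57% and 5.36%. The limits of FL, camptothecin and ICRF-193 lie above the 4.58% that coding exons make up. For these 3 lists a count of 0 cannot be told from that share. Peak edges reached the coding exon of 2 genes, OR4C46 in FL, dHD, N-C1 and ICRF-193, and OR8J3 in N-C1. FL density was 6.24 peaks per Mb on the gene bodies (2.29 to 13.6), 14.4 within 2 kb of them (6.58 to 27.3), 5.55 between 50 and 100 kb (2.40 to 10.9) and 6.96 beyond 100 kb (6.50 to 7.45), with overlapping intervals. For ICRF-193 it was 6.24 (2.29 to 13.6) on the bodies, 27.2 (15.8 to 43.5) within 2 kb and 10.1 (9.51 to 10.6) beyond 100 kb. For N-C1 the same values were 15.6 (8.73 to 25.7), 33.6 (20.8 to 51.3) and 18.7 (17.9 to 19.5). The interval within 2 kb lay above that beyond 100 kb for N-C1 and ICRF-193. N-C1 was as dense between 10 and 20 kb, with 34.4 (25.2 to 45.9), so its excess was not limited to the nearest DNA. A/T content went from 60.7% in bodies to 63.8% within 2 kb and 58.2% beyond 100 kb. FL peaks outside the bodies lay upstream in 15 cases and downstream in 13, with a median distance over all 34 of 3023 bp from the nearest OR gene.

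**Figure D3:**
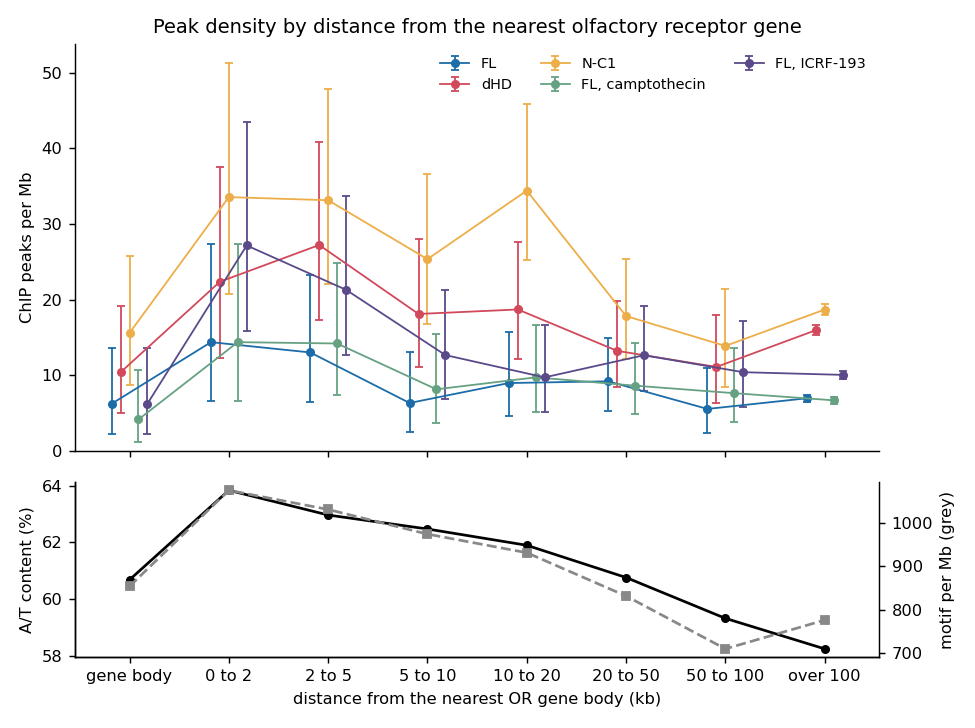
Upper panel, ChIP-seq peaks per Mb with 95% Poisson intervals by distance in kb from the nearest olfactory receptor gene body for the 5 lists; lower panel, A/T content (black) and consensus matches per Mb (grey) of the same bins. FL density is 6.24 per Mb on gene bodies and 14.4 within 2 kb, where A/T content is highest at 63.8%.

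ChIP-seq peaks within 1000 bp of the start were rare, at 4 OR genes for FL (2.34%, 0.641 to 5.88), which were OR4C13, OR4C46, OR8I2 and OR8B8, chosen after their values were seen. The share among the other genes of the chromosome was 0.698% (0.302 to 1.37). For N-C1 it was 11 OR genes (6.43%, 3.25 to 11.2) against 1.40% (0.800 to 2.26), and for ICRF-193 it was 6 (3.51%, 1.30 to 7.48) against 0.436% (0.142 to 1.02). The intervals of OR and other genes did not overlap for N-C1 and ICRF-193, and did for FL, dHD and camptothecin. The 250 bases before and 50 after the start were taken from RefSeq (GRCh38.p14) for the 133 OR genes that matched. These were 62.1% A/T on average against 42.5% over 35116 promoters, and 21.8% of them (15.1 to 29.8) held a consensus match, against 7.74% of all promoters (7.46 to 8.02).

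OR-region peaks of FL, dHD, N-C1 and ICRF-193 were more A/T-rich at their centers than other peaks, the camptothecin difference had an interval that included 0, and no difference in consensus matches was detected in any list. In the central 200 bp, FL peaks of OR regions averaged 74.4% A/T (SD 4.05, n = 34 peaks) and FL peaks elsewhere 72.2% (SD 5.71, n = 892), a difference of 2.16 percentage points (SE 0.721, 95% interval 0.749 to 3.57). In the flanks from 1000 to 2000 bp away the FL values were 61.8% (SD 3.37) and 62.1% (SD 5.11), a difference of -0.256 points (-1.44 to 0.927). The center was richer in A/T than its own flanks for 34 of 34 FL peaks in OR regions and for 94.4% of those elsewhere. The difference was 2.86 points (1.65 to 4.07) for dHD, 1.96 (1.13 to 2.80) for N-C1, 1.07 (-0.248 to 2.40) after camptothecin and 1.57 (0.544 to 2.59) after ICRF-193. The flanks were also richer in A/T in OR regions for dHD, by 1.16 points (0.230 to 2.08), and for N-C1, by 1.24 (0.491 to 1.99). After camptothecin and ICRF-193 the flank differences were 0.388 (-0.885 to 1.66) and 0.226 (-0.764 to 1.22). Consensus matches in the central 400 bp numbered 2.74 per FL peak (SD 1.14) and 2.92 elsewhere (SD 1.77), a difference of -0.190 (-0.589 to 0.210). It was 0.0620 (-0.210 to 0.334) for dHD, -0.182 (-0.415 to 0.0518) for N-C1, -0.433 (-0.877 to 0.0103) after camptothecin and -0.291 (-0.619 to 0.0368) after ICRF-193, and all 5 intervals included 0. A window of that length held at least 1 match in 30.8% of OR-region windows and in 24.9% of those elsewhere. At FL peaks it did so for 34 of 34 in OR regions, the OR8H1 peak included. Elsewhere it did so for 864 of 892 FL peaks (96.9%, 95.5 to 97.9). The largest number of matches in an OR-region FL peak was 5, against 22 on the rest of the chromosome. The median fold enrichment of FL peaks was 6.52 in OR regions (5.96 to 9.23) and 7.46 elsewhere (7.19 to 7.74), with overlapping intervals.

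**Figure D4:**
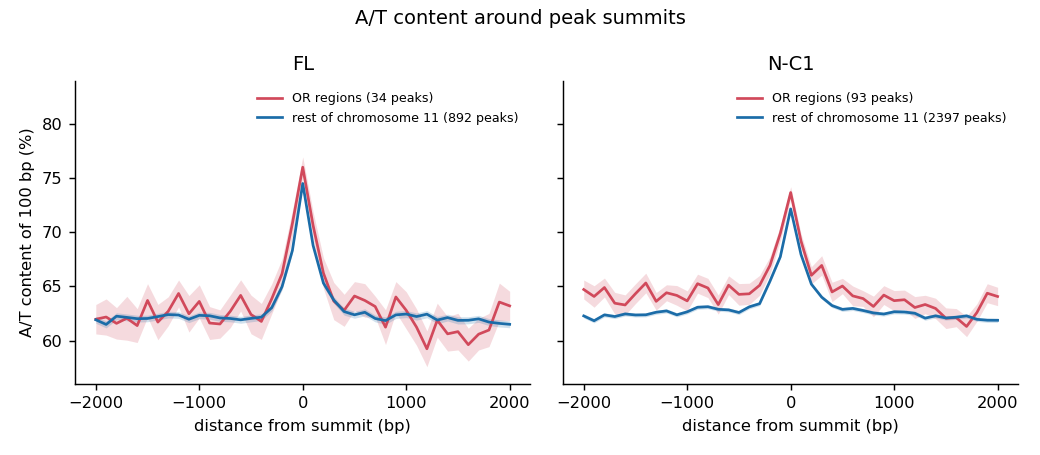
Mean A/T content of 100 bp windows by distance in bp from the peak summit, with the SE across peaks shaded, for FL and N-C1 peaks in olfactory receptor regions (red, 34 and 93 peaks) and on the rest of chromosome 11 (blue, 892 and 2397 peaks). Both sets are highest at the summit, where the mean of OR peaks lies above that of the others. For FL these means are 76.0% (SE 0.959) and 74.5% (SE 0.215), and for N-C1 73.7% (SE 0.542) and 72.2% (SE 0.114). No interval was computed for the difference at the summit.

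No difference between OR regions and the rest was detected in how many sites the shortened constructs shared with FL. Of the 34 FL peaks, 28 were also in dHD (82.4%, 65.5 to 93.2, against 88.8% over the chromosome) and 31 in N-C1 (91.2%, 76.3 to 98.1, against 95.1%). The difference from the rest of the chromosome was -6.66 percentage points for dHD (-23.7 to 4.45) and -4.12 for N-C1 (-19.0 to 3.03), and both intervals included 0. In the other direction, 28 of 68 dHD peaks were also in FL (41.2%, 29.4 to 53.8, against 39.2%) and 31 of 93 N-C1 peaks (33.3%, 23.9 to 43.9, against 35.3%). The number of peaks relative to FL was 2 for dHD in OR regions and 2.27 elsewhere, and 2.74 and 2.69 for N-C1. The 6 FL peaks without dHD were 77.9% A/T (SD 2.01) and the 28 with it 73.6% (SD 3.99); on the rest of the chromosome the same classes were 77.9% and 71.5%. In OR regions 3 of 34 FL peaks were in neither construct list, against 37 of 892 on the rest of the chromosome. These 3 were at OR52A5 (6.27), OR4S1 (5.82) and OR8K3 (5.13), and all 3 were found after both drugs. The strongest site of dHD was at OR8B4, 3508 bp upstream, with 25.6 in dHD, 14.5 in FL and 26.5 in N-C1. Without FL, the sites of both constructs with the largest N-C1 values were at OR10Q1 with 12.1 in N-C1 and 4.80 in dHD, and at OR8D1.

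Most FL sites of the OR regions were also listed after the inhibitors. After camptothecin 29 of 34 were found again (85.3%, 68.9 to 95.0, against 78.7% over the chromosome), and after ICRF-193 33 of 34 (97.1%, 84.7 to 99.9, against 91.5%). The differences from the rest of the chromosome were 6.82 percentage points (-9.75 to 17.0) and 5.80 (-6.71 to 9.33), and both intervals included 0. In OR regions 1 of 34 FL peaks was in neither drug list, against 69 of 892 on the rest of the chromosome. It was in an intron of OR9Q1, with 4.96 in FL, 7.58 in dHD and 5.14 in N-C1. Conversely, 29 of 35 camptothecin peaks (82.9%, 66.4 to 93.4, against 80.8%) and 33 of 56 ICRF-193 peaks (58.9%, 45.0 to 71.9, against 62.8%) were also in FL. The number of peaks relative to FL was 1.65 for ICRF-193 in OR regions and 1.44 elsewhere, and 1.03 and 0.966 for camptothecin. The 23 ICRF-193 peaks without FL were weaker than the 33 with it, with medians of 5.58 and 8.51 within that list. On the rest of the chromosome the same classes had medians of 5.38 and 9.48, so this difference was not particular to OR regions. The OR-region peaks without FL were as rich in A/T as those with it, with 75.7% (SD 3.40) and 74.3% (SD 3.92). The strongest ICRF-193 peaks without FL in OR regions were at OR8D1 (9.09) and OR6M1 (8.11), both in the cluster from OR6X1 to OR8A1. The strongest camptothecin peaks without FL were at OR8B8 (6.28) and, with equal values, at OR4A8 (5.74) and OR8H2 (5.74).

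Across the 111 joined sites, 24 were in all 5 ChIP-seq lists, where the share over the 3015 joined sites of the chromosome was 21%. A single list held 39 of them, 26 in N-C1, and the shares over the chromosome were 35% and 19.8%. At the 28 sites of FL and dHD the medians were 7.05 in FL and 10.2 in dHD, and at the 31 sites of FL and N-C1 they were 6.91 and 11.1, each relative to the background of its own list. Outside the OR regions the same medians were close to these, with 7.47 and 10.3 for FL and dHD and 7.46 and 11.1 for FL and N-C1. On the rest of the chromosome, FL peaks shared with another list were stronger in FL than those not shared. Their medians were 7.47 and 6.78 for dHD, 7.46 and 6.02 for N-C1, 8.31 and 5.68 for camptothecin, and 7.75 and 5.41 for ICRF-193. The 10 strongest FL sites of the OR regions, from 12.9 at OR1S1 to 25.0 at OR8H1, were all in N-C1 and both drug lists, and 9 of them were in dHD. The exception was the OR5AR1 site printed above, with 19.8 in FL, 12.5 in N-C1, 18.0 after camptothecin and 24.9 after ICRF-193. The second OR5AR1 site, 6115 bp from the gene, had 18.6 in FL and 22.2 in dHD. These 10 sites were picked by their FL values, and the shares for equally strong FL peaks elsewhere were not counted. Of all FL peaks on the rest of the chromosome, 95.3% were in N-C1, 78.5% in the camptothecin list, 91.3% in the ICRF-193 list and 89.0% in dHD. By position, 81 of the 111 sites were intergenic, 12 in an intron of an OR gene, 5 in an OR exon outside the coding part and 13 in the body of another gene, such as the OR51F1 site (21.4 in FL) in MMP26, a matrix metalloproteinase gene. At the border set by the 10 kb flank, the last FL peaks inside were at OR5B17 (5.68) and OR4C11 (6.50), and the first outside were at OR5AS1 (29.9, 10.5 kb away) and OR10AG1 (8.15, 11.6 kb away).

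**Figure D5:**
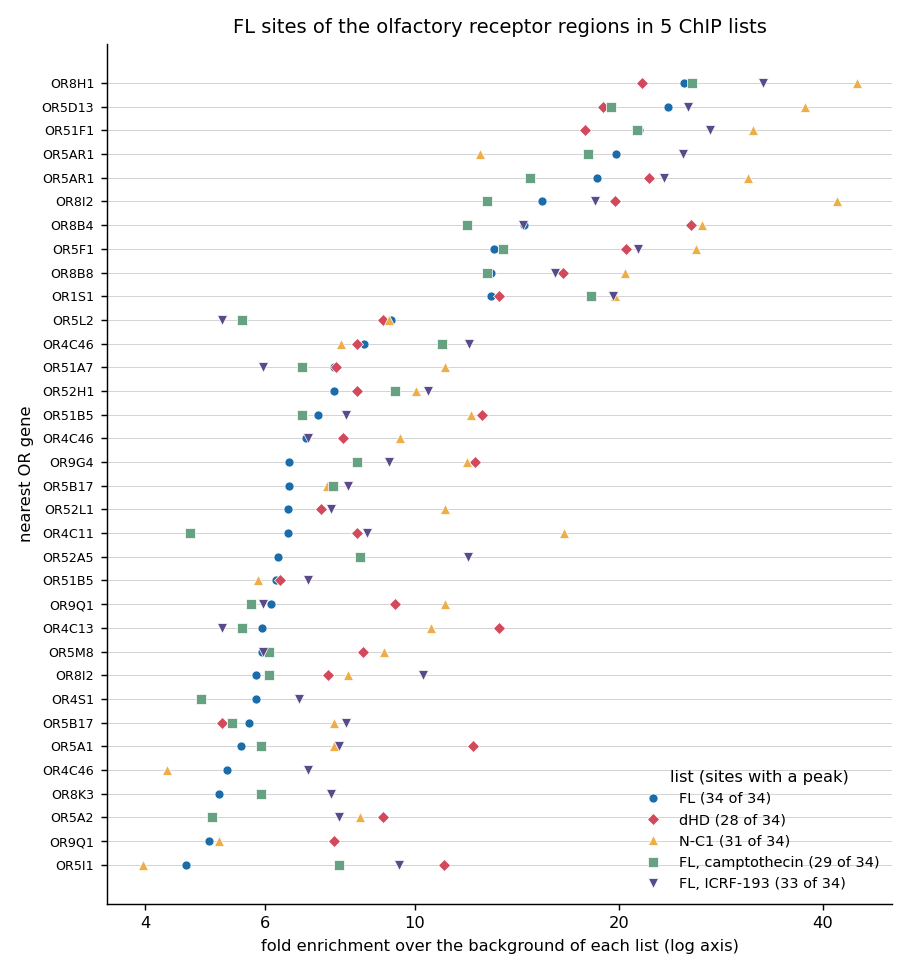
Fold enrichment (log axis) over the background of each list at the 34 FL sites of the olfactory receptor regions, ordered by FL and named by nearest gene, with 1 symbol per ChIP-seq list; no symbol means no listed peak. The 10 strongest FL sites, picked by their FL values, have a peak in N-C1 and both drug lists, and the dHD symbol is missing at 1 of them, by OR5AR1.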

How the data were processed

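The authors trimmed reads with cutadapt, aligned them to hg19 with Bowtie2 and called peaks with MACS2, in broad mode for ATAC-seq. The authors used input DNA as the control for ChIP-seq peaks. The versions of Bowtie2 and MACS2 are not given in the sources used here. The authors deposited for each peak a fold enrichment (a ratio of pileup to local background), a −log10 p-value, a −log10 q-value and a score derived from the q-value. The study gives a general range of reads for its ChIP-seq libraries and the files give no depth per list, so peak numbers of different lists are not measures of binding.

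Peaks of 7 of the 20 samples were used, 1 list per condition; the mouse samples, input DNA, psoralen (TMP) libraries and the N-terminal construct were not analysed here. GENCODE release 44 gene models on GRCh37 gave genes and exons. Overlap meant at least 1 bp. A/T content was counted in 200 bp and YTAWTAR matches in 400 bp at the peak center. Standard errors across peaks gave intervals of mean differences, and Newcombe's square-and-add formula on the exact bounds gave those of share differences. Named genes and sites followed a written rule, by number of FL peaks, fold enrichment, coding exon, start peak and class of peak, with ties by fold enrichment, except where stated. The members and lists were chosen with earlier results of these data known. Functions were tested on simulated data. Alternatives covered peak thresholds, flanks, windows, background, consensus and clusters. Sequence was indexed with samtools 1.23.1, intervals were compared in Python 3.11.15 and checked against bedtools 2.31.1 on simulated intervals, and statistics used scipy 1.17.1 with numpy 2.4.6, pandas 2.3.3 and matplotlib 3.10.9. The OR8H1 and OR8I2 peaks were aligned with the local aligner of Biopython.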

Additional observations from a re-analysis of the deposited data

How the results depend on the processing

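Without the 10 kb flanks the density ratio was 0.875 for N-C1, 0.606 after camptothecin and 0.811 after ICRF-193, turned below 1, and 0.779 for dHD; OR51B5 and OR9Q1 (202 and 158 kb) make up much of that sequence. Of 171 alternative values of 25 results, 151 moved by less than their counting interval. Further ChIP-seq density ratios follow in the order FL, dHD, N-C1, camptothecin and ICRF-193. Against DNA over 10 kb from any protein-coding gene they were 1.17, 1.04, 1.18, 1.20 and 1.31. Against 10 kb around other genes they were 1.58, 1.37, 1.61, 1.75 and 1.82. Without the OR4A16 to OR5AK2 cluster they were 1.15, 1.13, 1.20, 1.13 and 1.44. Without the OR52B4 to OR10A3 cluster they were 1.80, 1.43, 1.66, 2.00 and 1.84. The ATAC-seq covered share ratio was 0.208 (native) and 0.148 (Satb1), and became 0.282 and 0.220 with 50 kb flanks, 0.391 and 0.312 against DNA over 10 kb from any protein-coding gene, 0.156 and 0.108 against 10 kb around other genes, 0.268 and 0.188 without the OR4A16 to OR5AK2 cluster and, for Satb1, 0.115 without the OR52B4 to OR10A3 cluster. All FL peaks of at least 5-fold (100%) were found after ICRF-193, and 48.3% of such N-C1 peaks were in FL. FL peaks lay in the body of 3.51% of OR genes and within 50 kb of 57.3%. Starts in a native ATAC-seq peak fell to 2.34% within 100 bp and 2.92% at −log10 q of at least 5, and in a Satb1 peak to 2.92% within 100 bp. Leaving out OR51B5 and OR9Q1, or bases within 10 kb of other genes, was chosen after seeing the data and gave FL ratios of 1.40 and 1.54. No paired analysis was possible because there was 1 list per condition.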

Other observations

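The share of consensus matches inside peaks was compared by the number of matches within 200 bp, and OR regions were not higher or lower throughout. Of matches with no other within 200 bp, 0.285% lay in an FL peak in OR regions and 0.268% on the rest of chromosome 11. Of pairs, 3.30% (2.27 to 4.63) and 1.99% (1.83 to 2.17) did, of groups of 3, 5.82% (3.43 to 9.16) and 10.6% (9.94 to 11.4), and of 4 or more, 49.3% (37.4 to 61.3) and 45.4% (43.4 to 47.3). For N-C1, pairs were in peaks in 8.76% (7.06 to 10.7) and 6.66% (6.36 to 6.97) of cases and groups of 3 in 16.1% (12.1 to 20.8) and 23.6% (22.7 to 24.6). For dHD the values were 6.80% (5.30 to 8.58) and 5.90% (5.62 to 6.19) for pairs and 15.4% (11.5 to 20.1) and 20.8% (19.9 to 21.8) for groups of 3. Matches of the same group share a peak, so these intervals are too narrow. Over all matches the shares were 2.65% and 2.66% for FL.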
